A study of Mus musculus with 4 samples.

Results

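The regions described here were intermediately methylated in WT hair matrix keratinocytes and had nearly the same methylation level in cells without Tet2 and Tet3. They were the 5025 autosomal regions of 10 or more cytosine positions whose WT level was 20% to below 60% and whose DKO level lay within 5 percentage points of it. They came from 484555 regions of the authors' deposited table, of which 211368 were autosomal with 10 or more positions and 63956 of those were intermediate in the WT. The members were thus chosen by the DKO and WT levels and their difference. They are called unchanged below as a name for this choice and not as the outcome of a test.

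DNA of sorted primary keratinocytes from the hair matrix, the dividing cells at the base of the follicle, was bisulfite-sequenced genome-wide at postnatal day 4.5. There were 2 libraries of Tet2/Tet3 DKO cells, in which both genes were deleted with Krt14-Cre, and 2 of WT cells. Krt14-Cre acts in epithelial cells that express Krt14 or descend from such cells, so any other sorted cell would keep both genes. The labels do not say whether the WT mice carried the Cre, whether the libraries of a genotype came from separate animals, or the sex of the animals. The identity of the sorted cells could not be checked against marker expression, since the values used here are methylation levels. Levels of single regions below are the authors' group means from the deposited table, with no error or replicate value, and differences are DKO minus WT.

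TET enzymes oxidise 5-methylcytosine to 5-hydroxymethylcytosine and further products, which starts the removal of the methyl mark. Bisulfite sequencing reads both of these forms as methylated. A bulk level between the extremes can come from a locus that is methylated on a single parental allele, from a mixture of cells, or from methylated and unmethylated stretches averaged in 1 region. Imprinting control regions are the textbook case of the allelic kind: the mark is set in the germ line of a single parent and is kept in body cells, in part through the zinc finger protein ZFP57, which binds the methylated motif TGCCGC. Which of these sources applies to a given region was not tested, because the deposited values are group means over whole regions.

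Promoters of imprinted genes that lay in unchanged regions are printed here beside a hair keratin promoter that gained methylation. They were printed because the number of CpGs in them differed, so they do not stand for all such promoters. Each sequence holds the 250 bases before an annotated transcript start, 5′ to 3′ on the gene's strand, from RefSeq (GRCm38.p6), with CpGs in capitals. The Plagl1 sequence is chr10:13090582-13090831 on the plus strand, the Mcts2 sequence chr2:152686898-152687147 on the plus strand, and the Gnas sequence chr2:174327499-174327748 on the plus strand. The Nap1l5 sequence is chr6:58907127-58907376 on the minus strand, and the Krt28 sequence chr11:99374904-99375153 on the minus strand.
Plagl1: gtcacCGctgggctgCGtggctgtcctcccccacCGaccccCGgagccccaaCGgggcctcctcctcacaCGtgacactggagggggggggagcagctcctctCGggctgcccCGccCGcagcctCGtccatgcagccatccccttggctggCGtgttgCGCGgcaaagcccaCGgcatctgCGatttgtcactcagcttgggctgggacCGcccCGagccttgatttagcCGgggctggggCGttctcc
Mcts2: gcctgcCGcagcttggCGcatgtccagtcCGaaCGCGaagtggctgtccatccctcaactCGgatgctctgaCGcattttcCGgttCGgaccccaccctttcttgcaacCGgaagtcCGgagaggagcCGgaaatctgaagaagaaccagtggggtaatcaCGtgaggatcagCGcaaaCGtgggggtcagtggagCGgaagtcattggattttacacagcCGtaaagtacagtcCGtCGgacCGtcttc
Gnas: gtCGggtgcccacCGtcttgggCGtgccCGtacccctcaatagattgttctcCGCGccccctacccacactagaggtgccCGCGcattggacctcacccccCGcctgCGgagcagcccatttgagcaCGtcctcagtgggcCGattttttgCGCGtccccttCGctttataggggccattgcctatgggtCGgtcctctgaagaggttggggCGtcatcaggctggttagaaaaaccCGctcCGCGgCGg
Nap1l5: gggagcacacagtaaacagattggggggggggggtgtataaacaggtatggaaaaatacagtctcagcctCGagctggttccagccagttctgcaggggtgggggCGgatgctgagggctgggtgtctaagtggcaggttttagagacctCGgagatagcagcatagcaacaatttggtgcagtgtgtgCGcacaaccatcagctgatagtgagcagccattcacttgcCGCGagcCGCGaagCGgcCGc
Krt28: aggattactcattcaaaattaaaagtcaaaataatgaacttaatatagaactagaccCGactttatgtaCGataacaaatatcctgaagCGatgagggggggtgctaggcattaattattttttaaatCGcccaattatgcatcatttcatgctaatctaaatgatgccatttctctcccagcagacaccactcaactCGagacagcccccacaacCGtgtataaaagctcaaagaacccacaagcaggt

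The Plagl1 sequence held 19 CpGs, Mcts2 20, Gnas 21 and Nap1l5 10, against 6 in Krt28. Promoters not printed narrowed this contrast, with 12 CpGs at Nnat and 13 at Commd1 in unchanged regions, against 9 at Krt72 and 4 at Krt25 in gained ones. All 250 bases of the Plagl1, Gnas and Nap1l5 sequences lay in an unchanged region, as did 221 of the 250 bases of Mcts2. Krt28, an inner root sheath keratin, lay in a region with 82.5% methylation in the DKO and 24.5% in the WT. The letters TGCCGC begin at base 4 of the Mcts2 sequence, outside the unchanged region, and at base 227 of Nap1l5, and the reverse complement GCGGCA begins at base 161 of Plagl1. The printed Gnas and Krt28 sequences hold neither.

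Both genotypes had similar levels in the unchanged regions, as the choice fixed. The median level was 44.7% in the DKO (interquartile range 32.5% to 53.2%) and 46.3% in the WT (33.5% to 54.6%). The DKO was lower in 3525 regions (70.1%) and higher in 1500 (29.9%), with a median difference of -1.65 points (interquartile range -3.21 to 0.498). The difference chose the regions, and all of them were listed with a statistic in the WT-over-DKO direction, so this direction is a description of listed regions. The spread estimate that the authors' deposited table gives for each region had a median of 3.84 points. There were 1031 regions (20.5%) within 1 point.

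The unchanged regions were 7.86% of the 63956 intermediate regions, while 54783 (85.7%) were higher in the DKO by 20 points or more and are called gained below. Because the difference chose both classes, nothing is read from these shares. The median level of the gained regions was 75.2% in the DKO and 42.2% in the WT. Between these classes, 2281 regions were higher by 5 to 20 points, and 1867 regions were lower by 5 points or more. At the upper bound, the 72 regions less than 0.5 points inside it had a median difference of 4.74 points, and the 71 less than 0.5 points outside it 5.22 points. At the lower bound, the 315 regions just inside had a median of -4.69 points and the 314 just outside -5.25 points. The counts on either side of each bound were nearly equal.

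**Figure D1:**
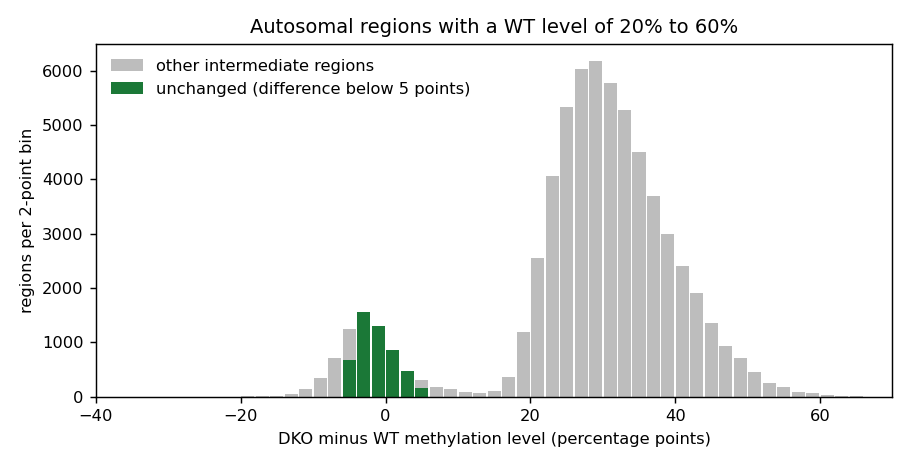
Number of autosomal intermediate regions (vertical axis, per 2-point bin) by DKO minus WT methylation level in percentage points (horizontal axis). The 5025 unchanged regions, in green, sit left of the large peak of gained regions, with most of them below 0, and grey bars continue on both sides of the green ones.

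The listing itself limits what can be said of the trough in the plot of differences. Each of the 5025 unchanged regions has a positive extreme statistic of at least 1.54 in the authors' deposited table. The statistic summed over the region is positive in all 5025 as well, whereas it is negative in 54752 of the 54783 gained regions. The statistic per position of the unchanged regions had a median of 2.09, while the WT minus DKO difference divided by the spread estimate had a median of 0.410. The offset between these measures had a median of 1.77 in unchanged and 1.98 in gained regions. The extreme statistic of gained regions had a median of -4.36 and a 90th percentile of -4.06, farther from 0 than the 1.54 of unchanged regions. The classes were thus listed at unlike values of the statistic. Whether this bears on the widths, positions and densities below was not tested. Intermediate regions whose statistic lay nearer 0 are not in the table used here, so the number of unchanged regions is a number of listed regions and not of all such stretches of the genome.

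Unchanged regions were shorter and more densely filled with CpGs than gained ones. Their median width was 482 bp (interquartile range 311 to 724), against 616 bp (414 to 879) for gained regions and 589 bp for all 211368 autosomal regions of 10 or more positions. They spanned 10 to 4935 bp and 2915 kb in total. The median number of cytosine positions was 17, against 20 in gained regions. Their median density was 3.93 positions per 100 bp (interquartile range 2.88 to 5.48), against 3.29 (2.54 to 4.35) in gained regions and 3.30 in all. The strands of a CpG are mostly counted as separate positions, since 89.2% of the listed regions of 2 positions were 2 bp wide.

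The difference was widest at the dense end. Regions with 10 or more positions per 100 bp made up 228 of the unchanged regions (4.54%, 95% Wilson interval 4.00% to 5.15%), 535 of the gained regions (0.977%, 0.898% to 1.06%) and 4.41% of all. Regions with 100 or more positions numbered 58 among unchanged (1.15%) and 67 among gained regions (0.122%). Sparse regions, under 3 positions per 100 bp, were 27.8% of unchanged and 40.7% of gained regions. These intervals treat regions as independent, which neighbouring regions are not, and cover counting error only.

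Read the other way, the share of intermediate regions that were unchanged was higher in each denser bin. It was 5.07% of 5363 regions below 2 positions per 100 bp, 5.70% at 2 to 3, 7.56% at 3 to 5 and 12.6% at 5 to 10. It reached 22.7% of 715 regions at 10 to 15 positions per 100 bp (Wilson interval 19.7% to 25.9%) and 32.4% of 204 regions at 15 or more (26.3% to 39.0%). The gained share was 87.9% in the sparsest bin and 49.0% in the densest. By WT level, 9.03% of the regions at 20% to 30% were unchanged, 5.50% at 30% to 40%, 6.30% at 40% to 50% and 11.0% at 50% to 60%, values that the choice itself used.

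**Figure D2:**
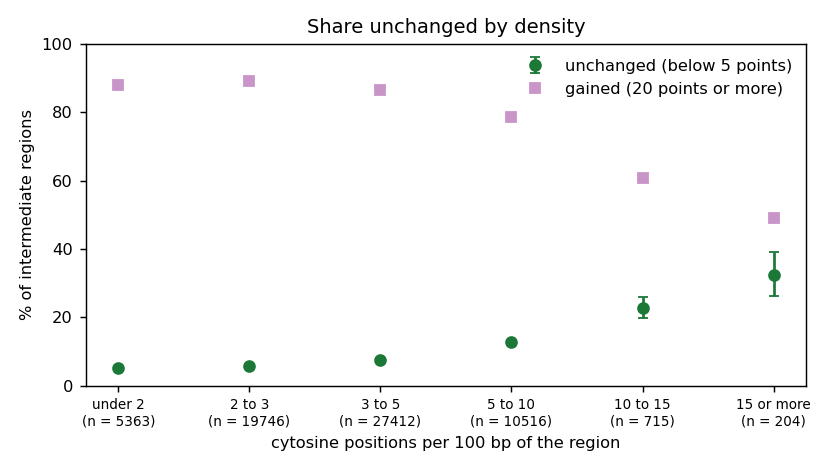
Percent of autosomal intermediate regions (vertical axis) that were unchanged (green circles, bars are 95% Wilson intervals) or gained (squares), by cytosine positions per 100 bp (horizontal axis, with the number of regions). The unchanged share is 5.07% in the sparsest bin and 32.4% in the densest.

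A larger share of germline imprinting control genes than of all genes had an unchanged region. Within 5 kb of the gene, 22 of the 36 genes of this list (61.1%) had at least 1, against 8.88% of all 47042 genes and 12.9% of the 20665 protein-coding genes. Of the 22 genes, 16 shared a region with another gene of the list, so they stand for 14 loci. The list's genes had a median length of 39.98 kb, against 17.5 kb for protein-coding genes, and a longer gene has more room for a region. Of the 36 genes, 25 (69.4%) had a gained region, against 41.7% of all genes and 53.9% of protein-coding genes, and 18 had both kinds. Another 54 imprinted genes outside that list had an unchanged region in 12 cases (22.2%) and a gained one in 33 (61.1%). The lists were written with earlier results of these data known, so these counts are descriptions.

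The 22 unchanged regions at germline imprinting control loci were those in or within 5 kb of a gene of the list. Whether each of them is a control region was not tested. They had a median of 7.14 positions per 100 bp, and 15 of them had 5 or more and 6 had 10 or more. The DKO was lower in 21 of the 22, against 70.1% of all unchanged regions, a direction that the choice and the listing bear on. Their levels ran over 34.6% to 59.0% in the DKO and over 38.4% to 59.9% in the WT, with a median difference of -2.41 points. The 78 gained regions at the same list of genes had a median density of 2.90 positions per 100 bp and median levels of 74.8% in the DKO and 43.0% in the WT.

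Several of these regions cover the promoters printed above. At Plagl1, which encodes a zinc finger transcription factor, and the noncoding Hymai, the levels were 38.4% in the DKO and 40.7% in the WT over 196 positions (chr10:13090056-13091808). The region across an end of Nap1l5, an intronless gene inside Herc3, stood at 43.6% in the DKO and 46.9% in the WT. Mcts2, a retrogene inside H13, had 34.6% in the DKO and 38.4% in the WT. Gnas encodes the stimulatory G protein alpha subunit, and its region with the printed promoter had 36.3% in the DKO and 39.6% in the WT over 148 positions. At each of these promoters the DKO was the lower genotype, a direction that the choice and the listing bear on. The choice itself kept the difference below 5 points.

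Nnat, which lies inside Blcap and encodes neuronatin, had 41.6% in the DKO and 44.7% in the WT over 180 positions. The retrogene Zrsr1 inside Commd1 had neighbouring regions with 37.7% and 38.9% in the DKO, against 38.9% and 40.8% in the WT. Airn is the noncoding RNA that silences Igf2r on the paternal allele, and the region shared by both genes had 38.5% in the DKO and 39.8% in the WT. At Peg13, inside Trappc9, the levels were 46.2% in the DKO and 50.5% in the WT.

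H19 encodes an imprinted noncoding RNA next to Igf2 whose control region is methylated on the paternal allele. The region across an end of H19 had 48.1% in the DKO and 49.3% in the WT, and the region 2055 bp outside it had 41.6% in the DKO and 46.1% in the WT. Cdh15, a cadherin of muscle, had the highest DKO level of the list, 59.0%, against 59.3% in the WT. Mest had 43.7% in the DKO and 46.7% in the WT over 26 positions. Its denser regions of 48 and 45 positions had larger differences, -5.33 and -6.71 points, and so were not among the unchanged ones. The exception to the direction was a region inside Slc38a4, an amino acid transporter, with 47.3% in the DKO and 46.6% in the WT. Other regions lay at Usp29, Kcnq1, Gnasas1 and a second site of Slc38a4.

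**Figure D3:**
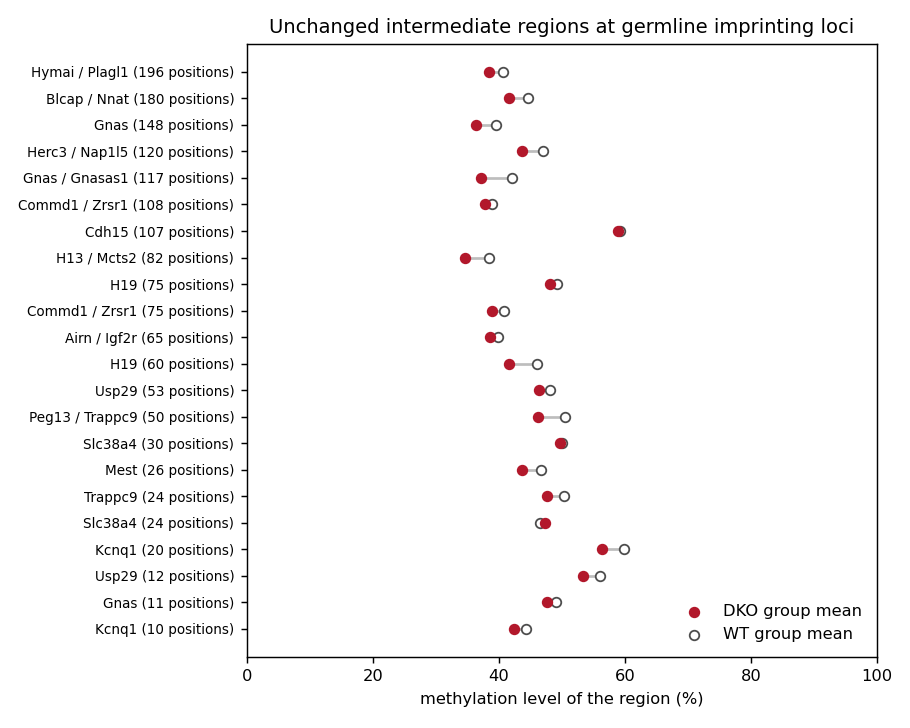
Methylation level in percent (horizontal axis) of the 22 unchanged regions in or within 5 kb of germline imprinting control genes. The DKO group mean is filled and the WT group mean open, with the number of cytosine positions beside the gene names. The filled circle lies left of the open one in 21 of 22 regions, and there is no error bar because the values are the authors' group means.

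A further 24 regions at 16 genes of the list were lower in the DKO by 5 points or more, with a median difference of -7.02 points and median levels of 38.3% in the DKO and 45.7% in the WT. The following were chosen after their values were seen. Kcnq1ot1, a noncoding RNA that silences neighbours of Kcnq1 on the paternal allele, had 40.6% in the DKO and 45.8% in the WT. Peg3 had 45.1% in the DKO and 50.7% in the WT, and Grb10 29.2% in the DKO and 38.2% in the WT. Gnas, Gnasas1, Mest, Slc38a4, Usp29 and Kcnq1, named above for an unchanged region, also had a region of this lower kind. At Slc38a4 it lay across a gene end, with 48.8% in the DKO and 56.8% in the WT over 70 positions. Counting both kinds, 32 of the 36 genes had a region that was unchanged or lower, against 11.5% of all genes and 16.2% of protein-coding genes. The 4 without were Dlk1, Gpr1, Impact and Rasgrf1.

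Within 15 kb of the unchanged regions at Plagl1, Nnat, Nap1l5 and Cdh15, 10 of 31 other listed regions of 10 or more positions gained 20 points or more. Of the 31, 19 had a WT level of 60% or more and 11 were intermediate in the WT, of which 9 gained. The regions nearest to the Nnat region did not gain, with 86.1% in the DKO and 87.5% in the WT on one side and 83.6% in the DKO and 84.5% in the WT on the other. The gaining regions named next were chosen after their values were seen. Next to the Plagl1 region, a stretch 1.90 to 4.02 kb from its centre had 74.6% in the DKO and 42.3% in the WT. Beside the Nap1l5 region, a stretch ending 4.95 kb from its centre had 79.4% in the DKO and 33.2% in the WT. Near Nnat, a stretch starting 4.19 kb from the centre had 71.9% in the DKO and 36.5% in the WT. Near Cdh15, a stretch starting 6.57 kb from the centre had 79.4% in the DKO and 41.3% in the WT. WT levels in these neighbours were close to those of the unchanged regions or below them.

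**Figure D4:**
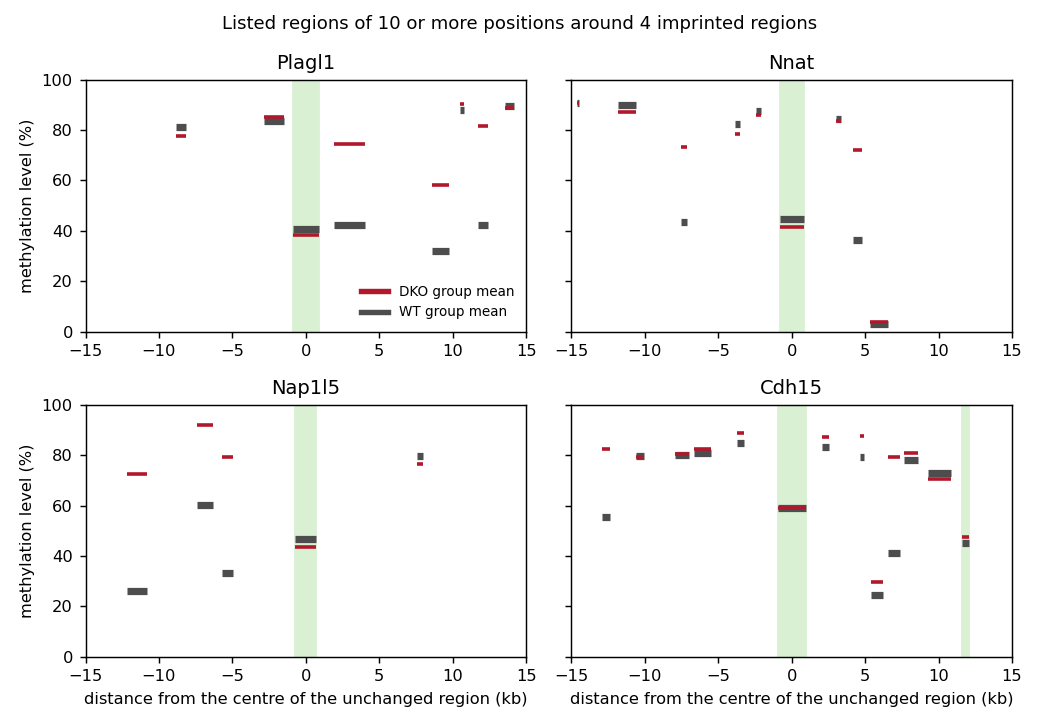
Methylation level in percent (vertical axis) of all listed regions of 10 or more positions within 15 kb of 4 unchanged imprinted regions, by distance from the region's centre in kb (horizontal axis), with the DKO group mean as thin red bars and the WT group mean as thick grey bars. The unchanged regions are shaded green (Cdh15 has a second one) and their bars nearly coincide, while each panel also has a neighbour above 70% in the DKO with a WT level below 45%.

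Among the 54 other imprinted genes, the 18 unchanged regions were sparser, at a median of 4.46 positions per 100 bp. The DKO was lower in 15 of them, against 70.1% of all unchanged regions. The choice and the listing bear on this direction, so no trait of these genes is read from it. The 18 regions lay at Ddc, Smoc1, Rian, Rtl1, Cmah, Pde4d, Rb1, Slc22a3, Bcl2l1, Zim1, Atp10a and Ampd3. Rian, a noncoding RNA of the Dlk1-Meg3 cluster, had 40.7% and 44.2% in the DKO, against 43.2% and 47.9% in the WT. Pde4d, a long phosphodiesterase gene, held 5 of the regions.

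The clustered protocadherins, cell adhesion molecules whose genes lie close together, were the other list with a high share. Of 57 genes, 37 (64.9%) had an unchanged region within 5 kb and 21 (36.8%) a gained one, against 12.9% and 53.9% of protein-coding genes. Their median length was 90.3 kb, against 17.5 kb for protein-coding genes. Many of these genes overlap, and the 37 genes together had 10 regions on chromosome 18. The regions at Pcdhb5 and Pcdhb11 each belonged to a single gene of the list. All 10 were lower in the DKO, against 70.1% of all unchanged regions, a direction that the choice and the listing bear on. No trait of the protocadherins is read from it. The 10 regions had a median difference of -2.07 points, with median levels of 43.9% in the DKO and 45.8% in the WT. Their median density was 10.4 positions per 100 bp. A region inside Pcdhga1 and its neighbours had 46.1% in the DKO and 47.7% in the WT over 62 positions. The gene models Gm37013, Gm38666 and Gm38667, which span much of the cluster, each overlapped 10 unchanged regions and 4 gained ones.

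Genes of the germ line are often held methylated in body cells, and 9 of 41 (22.0%) had an unchanged region, against 12.9% of protein-coding genes. A gained region was present at 20 of the 41 (48.8%), against 53.9% of protein-coding genes. Dazl, which encodes an RNA-binding protein of germ cells, had a region 31 bp from a gene end with 47.8% in the DKO and 52.1% in the WT over 116 positions. Smc1b, a meiotic cohesin subunit, had 21.4% in the DKO and 22.7% in the WT across a gene end. Tex14, needed for the bridges between germ cells, had 21.7% in the DKO and 20.8% in the WT. The others were Ddx4, Mov10l1, Piwil1, Tuba3a, Tex101 and Piwil4, and the Mov10l1 region had Panx2 as its nearest protein-coding gene. Of the 10 regions, 7 were lower in the DKO, a share close to the 70.1% of all unchanged regions.

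Of 52 hair keratins and hair matrix factors, 10 (19.2%) had an unchanged region and 43 (82.7%) a gained one, against 12.9% and 53.9% of protein-coding genes. The list held 17 unchanged regions and 204 gained ones. Lgr6, a receptor of hair follicle stem cells, had 4 of the unchanged regions, of which the longest in positions had 46.4% in the DKO and 46.9% in the WT over 108 positions. Hoxc13, a homeobox factor required for the hair shaft, had 55.7% in the DKO and 59.5% in the WT near a gene end. Krt14, the basal keratin whose promoter drives the Cre, had 19.2% in the DKO and 22.0% in the WT across a gene end. Shh, the secreted hedgehog ligand of the hair matrix, had 25.8% in the DKO and 26.2% in the WT. Krt15, Krt17, Lgr5, Lef1, Casz1 and Vdr also had an unchanged region in the gene or within 5 kb. The Krt17 region lay across an end of Krt42, and the Vdr region was 4762 bp from Vdr and 3313 bp from Hdac7.

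Genes of DNA methylation and demethylation had an unchanged region in 5 of 23 cases (21.7%) and a gained one in 17 (73.9%), against 12.9% and 53.9% of protein-coding genes. Dnmt3a, a de novo DNA methyltransferase, had a region with 43.2% in the DKO and 45.3% in the WT. A region inside Ctcfl, a germ cell paralogue of CTCF, had 39.4% in the DKO and 43.9% in the WT. Inside Tet3 a single unchanged region had 33.2% in the DKO and 33.0% in the WT, with the largest spread estimate of these genes, 7.22 points in the authors' deposited table. Tet3 had 9 gained regions. Neither Tet1 nor Tet2 had an unchanged region, and each had 3 gained ones. Mbd2 and Mbd4 were the remaining genes, and the Mbd4 region overlapped Efcab12.

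Large families of tandem genes had both kinds of region in smaller shares than all genes together, and many of them had no listed region at all. A listed region was present at 146 of 1104 olfactory receptors, 36 of 352 vomeronasal receptors, 38 of 368 immunoglobulin and T cell receptor segments and 1 of 10 Speer genes. Olfactory receptors had an unchanged region in 3 of 1104 genes (0.272%) and a gained one in 15, and vomeronasal receptors in 1 and 3 of 352. Immunoglobulin and T cell receptor segments had an unchanged region in 3 of 368 genes and a gained one in 2, and keratin-associated proteins in 1 and 16 of 56. A single gene had an unchanged region among 42 beta-defensins (8 gained), 51 genes of the serpin A and B families (15 gained) and 48 of cytochrome P450 family 2 (10 gained). The Speer family had 0 of 10 in either class, and the major urinary and lipocalin proteins 0 of 33 unchanged and 3 gained. Genes of several of these families are short, with list medians of 0.950 kb for olfactory receptors and 0.833 kb for keratin-associated proteins.

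Other families lay near or below the share of protein-coding genes. Hox genes had an unchanged region in 3 of 39 cases (7.69%), clustered histone genes in 8 of 67 (11.9%), zinc finger proteins of the Zfp series in 26 of 391 (6.65%), microRNA genes in 65 of 1080 (6.02%) and ribosomal proteins in 3 of 80 (3.75%). Mir34b and Mir34c shared a region with 27.6% in the DKO and 25.9% in the WT. By kind of gene, long noncoding RNAs had an unchanged region in 9.31% of cases and pseudogenes in 2.01%.

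**Figure D5:**
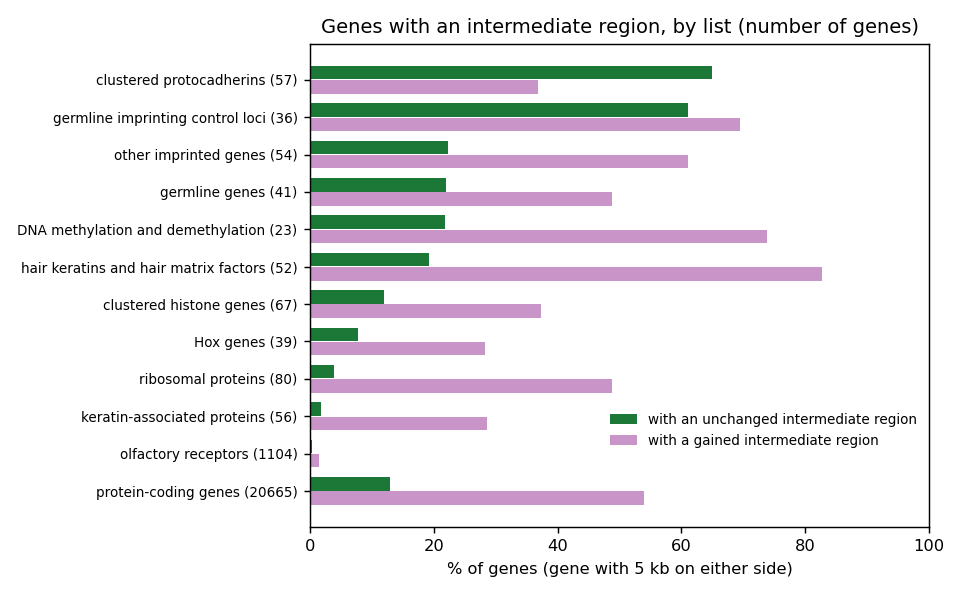
Percent of genes in each list (horizontal axis, number of genes in brackets) with an unchanged (dark, upper bar) or a gained (light, lower bar) intermediate region in the gene or within 5 kb. Among the lists drawn, the protocadherins alone have the longer bar for unchanged regions, 64.9% against 36.8%.

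A larger share of unchanged than of gained regions lay near gene ends. Of the 5025, 597 (11.9%, Wilson interval 11.0% to 12.8%) were within 1 kb of an end of a protein-coding gene, against 5.66% of gained regions and 7.25% of all autosomal regions. A further 38.5% lay inside genes, against 51.5% of gained regions, and 49.6% lay between genes, against 42.9%. By transcript starts, 551 of 4849 unchanged regions (11.4%) were within 1 kb, against 5.39% of gained regions. Among dense regions the share near a gene end was 19.3% for unchanged and 9.16% for gained, and it was 49.1% for all dense regions, whose median level was 4.82% in the DKO and 4.58% in the WT.

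Stretches far from genes held a smaller share of them. Unchanged regions at least 100 kb from a protein-coding gene made up 8.52% (Wilson interval 7.78% to 9.32%), against 11.5% of gained and 12.5% of all regions. At least 500 kb away there were 24 (0.478%), against 0.831% of gained and 1.44% of all regions. The most distant lay 1701520 bp from Slc10a2 and had 56.5% in the DKO and 58.6% in the WT. The next were nearest to Efna5, Fancl, Luzp2, Bcl11a and Gpc5, each more than 500 kb away.

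The widest regions had a positive median difference, which the choice itself bounded. Each unchanged region was listed with a statistic in the WT-over-DKO direction, so no direction is read from the differences given here. The 55 regions of 2 kb or more had a median difference of 1.26 points, with median levels of 42.2% in the DKO and 39.0% in the WT. That difference was below 3.84 points, the median spread estimate of all unchanged regions. Celsr1, a cadherin of planar cell polarity, had the widest, 4935 bp and 640 positions (chr15:86030526-86035460), with 35.2% in the DKO and 33.4% in the WT. Bmp1, a protease that processes procollagen, had 33.3% in the DKO and 32.0% in the WT over 4836 bp. The third in width lay 38461 bp from Lpar3 and had 46.3% in the DKO and 43.5% in the WT. Psap, Rffl and Slc29a2 completed the 6 widest, of which 3 lay at a gene end, and all 6 were higher in the DKO. A level averaged over such a width can join stretches of high and low methylation.

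By number of positions, Celsr1 and Bmp1 were followed by Neurl1a, B4galt2, Myorg and BC034090. Myorg had 49.5% in the DKO and 50.7% in the WT over 238 positions. The densest regions were tiny: 10 positions in 10 bp near Wnt9a, with 27.6% in the DKO and 27.5% in the WT, and as many inside Tox2, with 31.9% in the DKO and 33.6% in the WT. Commd8, Tll1, Nrf1 and Pik3r6 marked the other dense ones.

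Across promoters, 157 windows of 300 bases (250 before and 50 after a start, at least 150 of them in the region) from 147 genes lay in unchanged regions. They held a median of 8 CpGs (interquartile range 5 to 15), against 5 in 689 windows in gained regions, 25 in 5624 windows in regions below 20% in the WT and 7 in all 31365 windows. TGCCGC on either strand occurred in 16 of the 157 (10.2%), in 4.35% of windows in gained regions, in 24.4% of those below 20% and in 11.6% of all. The match lay inside the region itself in 14 of the 157 windows (8.92%) and in 28 of the 689 (4.06%). Some windows overlap, so the 16 windows held 13 distinct sites. In the 8 windows of germline imprinted genes there were 5 distinct sites, 1 shared by Plagl1 and Hymai, 2 at Nap1l5, 1 at Nnat and 1 at Mcts2, and the Mcts2 site lay outside the unchanged region. A match is a description of the letters and not of binding.

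Unchanged regions were spread over all autosomes and were mostly single. They made up 6.14% of the intermediate regions of chromosome 10 and 9.78% of those of chromosome 11, the extremes of the 19 autosomes. Of 2406 windows of 1 Mb with a listed region, 1567 had at least 1 unchanged region and 361 had 5 or more. The windows with 5 or more held a median of 15 protein-coding genes, against 2 in the 839 windows with none and 6 in all. The number of listed regions per window was not taken into account. A window with few listed regions has less room for an unchanged one, so no preference for gene-rich windows is read from this. Neighbouring unchanged regions lay a median of 167 kb apart, and 396 gaps (7.91%) were 10 kb or less.

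The fullest windows had 17 unchanged regions, at 38 to 39 Mb of chromosome 18 (Arhgap26, Pcdh1) and at 120 to 121 Mb of chromosome 8 (Crispld2, Gse1). In them 194 and 263 regions of 10 or more positions were listed, of which 61 and 63 were gained. Over all autosomes, 5025 of 211368 such listed regions were unchanged. Windows on chromosome 4 (Arid1a) and chromosome 11 (Septin9) had 15 each, of 213 and 292 listed. Another on chromosome 11 (Foxj1, Unc13d) had 14 of 282. After it 10 windows were tied at 13, among them 1 on chromosome 10 (Gng7, Nfic) with 122 listed. Camta1, a transcription activator gene of 802 kb, overlapped 10 unchanged regions and 46 gained ones, and Arhgap26, a GTPase activator, 9 and 44. Zfp423, Tenm2 and Wwox each overlapped 8 unchanged regions, and Zfp423 had 7 gained regions, against 39 in Tenm2 and 52 in Wwox.

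Unchanged regions were farther than gained regions from the nearest other region that was higher in the DKO. For these distances, such a region was any autosomal one higher in the DKO by 20 points or more. Its number of positions and its WT level were not limited, so this set is wider than the gained class. The median distance to the nearest such region was 4191 bp for unchanged and 2127 bp for gained regions. Within 1 kb there was such a region for 841 unchanged regions (16.7%), against 36.9% of gained regions, and within 10 kb for 75.7%, against 83.9%. More than 100 kb from any such region were 78 unchanged regions (1.55%), against 0.484% of gained regions.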

How the data were processed

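Whole-genome bisulfite libraries of hair matrix keratinocytes, 2 of Tet2/Tet3 DKO and 2 of WT mice, were grouped by the genotype in the labels. Per the submitters' processing notes, Trim Galore and Bismark were used, with GRCm38 (mm10) as the build. How the regions were called, smoothed and bounded is not given in the sources used here.

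Per the file headers, the deposited table gives each region's mean methylation level in each group as a fraction, multiplied to percent here. Per the file headers it also gives a statistic, treated as a score, and its spread estimate, a positive value recorded here as a signal on the scale of the fraction. The deposited group means carry no read counts, library values or p-values, so the depth is unknown and no test, error of a level or replicate check could be made. The WT was read as group 1 from the order of genotypes in the table's title, so every direction rests on that order.

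Regions were placed with RefSeq tables of GRCm38.p6 using Python 3.11.15, numpy 2.4.6, pandas 2.3.3 and scipy 1.17.1. The gene table gives no strand or exons. Transcript starts on chromosome 18 were not used here. Shares have 95% Wilson intervals. The interval and overlap code was tested on simulated data. Members and the 20 gene lists were chosen with earlier results of these data known. Named genes were imprinted genes with an unchanged region, the 6 genes with most such regions, the 6 widest, densest and most positions, up to 3 per other list, the 6 fullest windows, and Tet1, Tet2, Tet3 and Krt14. The most distant regions were named in addition, and some genes these choices would name are left out. Other bounds on positions, level, difference and distance were tried as alternatives.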

Additional observations from a re-analysis of the deposited data

How the results depend on the processing

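The count of 34 imprinted genes with an unchanged region, over both lists, ran over 23 to 50 under the 10 alternatives, always within 1.5 times. The number of unchanged regions was 2157 with 20 or more positions, 3036 with a WT level of 20% to 50% and 3206 with a difference below 3 points. With 20 or more positions, the median density was 4.29 per 100 bp, the median width 719 bp, the share near gene ends 14.3% and the share 100 kb or more from a gene 6.82%. With 5 or more positions, density was 3.83, width 367 bp and the distant share 9.38%. With a WT level of 20% to 50%, density was 4.27, width 467.5 bp, the gene end share 14.7% and the distant share 7.25%, and with 30% to 60%, density was 3.73 and the gene end share 9.84%. With a difference below 10 points, density was 3.82 and the distant share 9.65%, and below 3 points the gene end share was 10.9%. Counting genes of every kind gave 19.2% near gene ends, 36.6% between genes and 0.935% distant, and gene ends of 5 kb left 41.3% between genes. The cause of each shift was not tested, beyond the fewer or more regions and genes that each setting takes in. No paired analysis was possible because the table gives group means with no value per library, and leaving out a library was not run for the same reason. Depth is unknown, so how far it limits the 5-point bound cannot be given.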

Other observations

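The X chromosome was outside the choice of regions. Of its 736 intermediate regions of 10 or more positions, 81 were unchanged (11.0%, Wilson interval 8.94% to 13.5%) and 105 gained (14.3%), against 7.86% and 85.7% on the autosomes. Most of the 736 were thus in neither class, unlike the autosomal regions. The median levels of the 81 regions were 37.4% in the DKO and 39.7% in the WT, and 0 of them had 10 or more positions per 100 bp. The sex of the animals is not in the labels. Unplaced sequences had 11 intermediate regions, of which 2 were unchanged.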
